A study of Mus musculus with 21 samples.

Results

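Glomeruli of mice with intact Epac1 were compared between day 11 and day 4 of nephrotoxic serum nephritis. The libraries were chosen by their titles, which name the Epac1fl/fl genotype without a Cre and serum treatment on one of these days, and they number 7 of the 21 libraries of the study, 3 from day 4 and 4 from day 11. All mice were 3-month-old females. The Epac1fl/fl mice, called flox here, carry loxP-flanked Epac1 alleles and no Cre, so the gene is not deleted in them. Their littermates, called cKO, carry the same floxed alleles and a Cre transgene that deletes Epac1 in podocytes only. Nephritis was set off by intravenous injections of decomplemented nephrotoxic serum on 2 consecutive days, and control mice received PBS. Of the other groups, 3 flox PBS, 4 cKO day 4 and 4 cKO day 11 libraries are used below for reference. Each library came from the glomeruli of 1 mouse, cut by laser from frozen kidney sections and sequenced with QuantSeq FWD, a kit that reads the 3′ end of polyadenylated transcripts. The model is passive and acute, and day 4 and day 11 were sampled in different animals, so no mouse was followed over time.

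The glomerulus is a capillary tuft held together by mesangial cells and wrapped by podocytes, whose interdigitating foot processes and slit diaphragms sit on the outer face of a shared basement membrane. Antibodies in nephrotoxic serum bind this structure, and the injury that follows can progress to podocyte loss, crescents and deposition of matrix. Epac1, encoded by Rapgef3, is a cAMP-activated exchange factor that loads the small GTPases Rap1 and Rap2 with GTP, and it acts on cell adhesion, the actin skeleton and barrier function. The study asks what podocyte Epac1 contributes to the course of glomerulonephritis and to glycolysis. The comparison described here gives that course where the gene is present.

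Between day 4 and day 11 the abundant transcripts of flox glomeruli differed little relative to the spread between mice, and no gene passed the test. Among the genes whose days did not overlap and that had the smallest p were, higher at day 11, Npnt, a basement membrane ligand made by podocytes, the interferon-inducible Ifitm3 and the complex I gene Ndufs8. On the lower side they were the mitochondrially encoded ATP synthase gene mt-Atp6, the lipid transfer gene Stard10 and the histone deubiquitinase gene Usp16. By gene list, transcripts of the proximal tubule, distal nephron and mitochondrial respiration were lower at day 11, while basement membrane, matrix and interferon lists had medians above that of all genes. The highest medians were those of the tubular injury list (0.73 over 4 of 10 genes) and the erythrocyte list (0.55 over 4, but -1.02 without day 11 replicate 1). The parietal epithelial and crescent list came next (0.54 over 5 of 18 genes). The days did not overlap for 0 genes of these lists, against 7.11% of all abundant genes. Slit diaphragm and foot process genes were nearly balanced, with 16 higher and 14 lower.

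With edgeR's quasi-likelihood test 0 of 13898 genes had an adjusted p under 0.05 by Benjamini-Hochberg (0.0%), and the smallest adjusted p was 0.963. The unadjusted p was under 0.05 for 686 genes (4.94%), against 695 if p-values were evenly spread. Genes with a mean of 50 CPM or more over the 7 libraries (CPM, the count scaled by the adjusted library size) numbered 3489 and took 82.2% to 85.8% of the reads of each library. Among them 0 were called, and 87 had an unadjusted p under 0.05 (2.49%), against 174 if p-values were evenly spread. Of the 87, 52 were higher at day 11 (1.49%) and 35 lower (1.0%). The values of the 3 day 4 and 4 day 11 libraries did not overlap for 248 of the 3489 (7.11%), of which 127 were higher at day 11 (3.64%) and 121 lower (3.47%). The log2 fold change of day 11 over day 4, called the log2 difference below, had a median of 0.03 and its 5% and 95% quantiles were -0.91 and 1.02.

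The precision of single genes was low. The median standard error of the log2 difference was 0.69 among the abundant genes. The 95% interval lay wholly within a 2-fold change in either direction for 377 of them (10.8%), so for the rest this number of mice did not bound the difference within 2-fold. Among the 10409 less abundant genes the median absolute log2 difference was 1.08, against 0.36 for the abundant ones, and in 1176 of them a whole group held no reads. The account therefore rests on the abundant genes. Some of these had a mean of 50 CPM or more in their higher group only. Among the genes described below they include Cyp26b1, Ndufs8, Arap3, Arl4c, Irf9, Col4a5, Rapgef4, C1qa and Il34, with the higher mean at day 11. They also include Usp16, Ppt1, Phf20, Aldh4a1 and Rap1a, with the lower mean at day 11. For such genes, passing the abundance threshold was not independent of the difference between days.

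**Figure D1:**
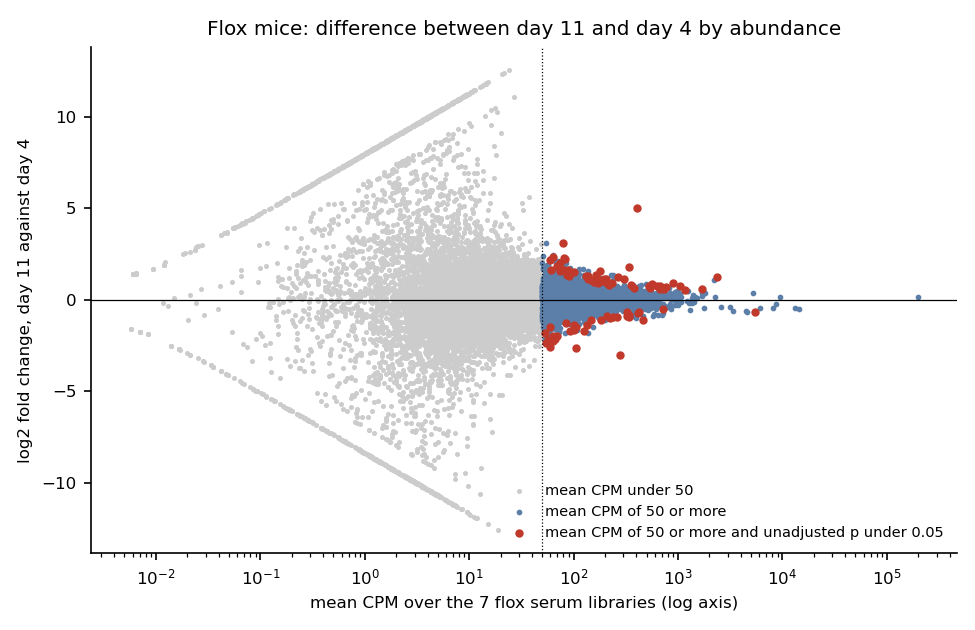
Log2 fold change of day 11 over day 4 in flox mice (vertical axis) against mean CPM over the 7 libraries (horizontal log axis), 1 point per gene tested, with the dotted line at 50 CPM. The points fan out to the left of the line, while to its right most lie close to 0 and the 87 genes at an unadjusted p under 0.05 sit on the outer edges of the cloud.

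DESeq2 called 567 genes (4.08%) in the same comparison, but 528 of these had no reads in one of the groups and 7 were among the abundant genes. Those 7 were Cyp26b1, Ndufs8, Npnt, Usp16 and Col1a2, which are described below, and Akap2 and Nfe2l2, which were named because of this result. Limma voom with quality weights called 25 genes (0.18%), of which Sparc and Npnt were abundant. Npnt was thus called by both of these tools and not by edgeR.

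Library depth ran from 13421591 to 24295712 reads over the 7 libraries. Reads of 1 ribosomal RNA gene took 15.2% to 30.1% of reads, and mitochondrial transcripts took 2.32% to 8.09%. Day 11 replicate 3 had the most ribosomal RNA and the least mitochondrial RNA, and day 11 replicate 1 held 1.53% haemoglobin reads against 0.16% to 0.51% elsewhere. Among abundant genes the Spearman correlation between libraries was 0.51 to 0.70 within a day, with a median of 0.61 over 9 pairs, and 0.52 to 0.71 across days, with a median of 0.58 over 12 pairs. Where leaving out 1 library moved a list median by much, the value without it is given below. Podocyte, endothelial and mesangial markers were present in all 7 libraries, which are labelled glomeruli, with summed podocyte markers of 3210 to 4948 CPM. Cd3e of T cells was at 0 throughout.

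Rapgef3 itself was at 124, 217 and 231 CPM in the 3 day 4 libraries and at 131, 135, 205 and 347 CPM in the 4 day 11 libraries. The groups overlapped widely, and the log2 difference was 0.10 ± 0.43 (SE), a value whose sign changed with a proximal tubule covariate (-0.27). In PBS mice the gene was at 201 to 310 CPM. Of 12 abundant genes around Epac and Rap, 8 were higher and 4 lower at day 11, with a median of 0.15 (-0.14 with that covariate, and -0.02 without day 11 replicate 3 or 4). Rap1a, one of the 2 Rap1 genes, was at 49.8, 89.01 and 101.1 CPM on day 4 and at 18.8, 40.8, 16.99 and 37.2 CPM on day 11. Its groups did not overlap and its log2 difference was -1.49 ± 1.02, a standard error wide enough that edgeR gave an unadjusted p of 0.15. Rapgef4, which encodes the related exchange factor Epac2, had a log2 difference of 0.85 ± 1.12.

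Podocyte transcripts had no common direction. Of 30 abundant slit diaphragm and foot process genes, 16 were higher and 14 lower at day 11, the median was 0.17 (-0.02 with the proximal tubule covariate, 0.07 without day 11 replicate 1 and 0.06 without day 4 replicate 3). The days did not overlap for 2 of the 30, close to the share of 7.11% among all abundant genes. Nphs1, which encodes the slit diaphragm protein nephrin, was at 347, 511 and 221 CPM on day 4 and at 683, 335, 606 and 304 CPM on day 11. The range of the day 11 values took in most of the day 4 values, and the log2 difference of 0.42 had a 95% interval of -0.29 to 1.14 and was 0.18 to 0.77 with single libraries left out. Synpo, the gene of the foot process actin organiser synaptopodin, was at 1356, 1812 and 934 CPM and then at 1322, 1257, 1288 and 1035 CPM. Its interval, -0.70 to 0.38, excluded a 2-fold change.

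Podxl, which encodes the surface sialoprotein podocalyxin, had a log2 difference of -0.47 ± 0.39, with day 11 replicate 3 at 599 CPM against 1477 to 3131 CPM in the other 6 libraries. It was -0.17 without that library and -0.04 without day 4 replicate 3. Thsd7a, a foot process membrane protein, differed between PBS and serum mice by value but not between the days. It was at 756 to 1161 CPM in the 3 PBS libraries, 218, 418 and 337 CPM on day 4, and 428, 285, 242 and 317 CPM on day 11. The last 2 groups overlapped fully, with a log2 difference of -0.03 (0.01 with median-of-ratios size factors) and an interval of -0.61 to 0.56. Of 7 podocyte transcription factors, 5 were higher and 2 lower. Wt1, the master regulator of the podocyte, had a log2 difference of -0.52 ± 0.58, and of -0.10 without day 4 replicate 2.

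Npnt and Clic5 were the 2 genes of this list without overlap, both higher at day 11. Npnt encodes nephronectin, which podocytes secrete into the basement membrane and which binds integrin α8β1 on mesangial cells. It was at 472, 577 and 408 CPM on day 4 and at 848, 814, 857 and 760 CPM on day 11. All 4 day 11 values lay above all of day 4 and all of the PBS values, which were 725, 444 and 530 CPM, and they were close to each other. The log2 difference was 0.75 ± 0.25 with an unadjusted p of 0.0055, and 0.66 to 0.90 with each library left out in turn. Clic5, a chloride intracellular channel protein that links ezrin to the foot process membrane, was at 552, 581 and 586 CPM and then at 1115, 672, 982 and 647 CPM. Its log2 difference of 0.58 ± 0.25 went down to 0.23 when day 11 replicates 1 and 3 were both left out.

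Basement membrane genes were mostly on the higher side at day 11. Of 14 abundant members, 11 were higher and 3 lower, with a median of 0.23 (0.19 to 0.34 with single libraries left out) against 0.03 for all abundant genes. The mean log2 CPM of the list was 7.59 to 7.66 in day 4 libraries and 7.91 to 7.96 in day 11 libraries, and 6.83 to 7.55 in PBS mice. The 3 day 4 and the 4 day 11 libraries were each close together and did not overlap. List levels were also free of overlap for the interferon, nuclear respiratory chain, mitochondrially encoded, antioxidant, distal nephron and tubular injury lists, some only barely. The tubular injury level was at most 6.919 on day 4 and at least 6.923 on day 11. The nuclear respiratory chain level was at least 7.43 on day 4 and at most 7.41 on day 11. For the distal nephron these values were 7.49 and 7.45. Of the 14 basement membrane genes, 2 did not overlap between days, Npnt and Col4a5, where the share of all abundant genes was 7.11%. Col4a3, a chain of the adult podocyte collagen IV network, had a log2 difference of 0.78 ± 0.40 and overlapped between days, at 155.4 to 538 CPM and 316 to 771 CPM. That value was 0.48 without day 4 replicate 3 and 1.45 without day 4 replicate 2. Col4a5, named because its groups did not overlap, encodes another chain of that network and was at 14.6, 22.3 and 30.9 CPM and then at 107, 53.5, 53.8 and 71.8 CPM. Its standard error of 1.29 was nearly as large as its log2 difference of 1.66. Col4a1 of the α1α2α1 network was at 716 to 837 CPM on day 4 and at 740 to 1167 CPM on day 11, both above the PBS range of 380 to 547 CPM, and its log2 difference was 0.18 ± 0.26.

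Matrix genes leaned the same way with more spread. Of 22 interstitial and matricellular genes, 16 were higher and 6 lower, with a median of 0.37. Sparc, a collagen-binding matricellular protein, was at 4053, 4878 and 4555 CPM on day 4 and at 5915, 5372, 6670 and 5549 CPM on day 11. All day 11 values exceeded all day 4 values, which in turn exceeded the PBS values of 2195 to 3343 CPM. The log2 difference was 0.39 ± 0.21 with edgeR (unadjusted p = 0.075), and voom with quality weights gave 0.55 with an adjusted p of 4.4e-09.

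Col1a2, a chain of fibrillar collagen I, was at 146, 160 and 154 CPM on day 4 and at 134, 393, 482 and 413 CPM on day 11. Day 11 replicate 1 was below the whole day 4 range and the other 3 were more than 2-fold above it. Its log2 difference was 1.21 ± 0.38 (unadjusted p = 0.0033) and 1.49 without replicate 1, and DESeq2 gave 1.24 with an adjusted p of 0.043. Timp2, an inhibitor of matrix metalloproteinases, was at 1569, 991 and 1391 CPM and then at 2223, 1168, 2290 and 2301 CPM. Replicate 2 was the low library there, and the log2 difference was 0.60 ± 0.22. Fbln5, an elastic fibre protein, was the exception among the matrix genes named by the rule. It was at 157 to 187 CPM on day 4 and at 44.3 to 110 CPM on day 11, without overlap, with a log2 difference of -1.33 ± 0.71.

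**Figure D2:**
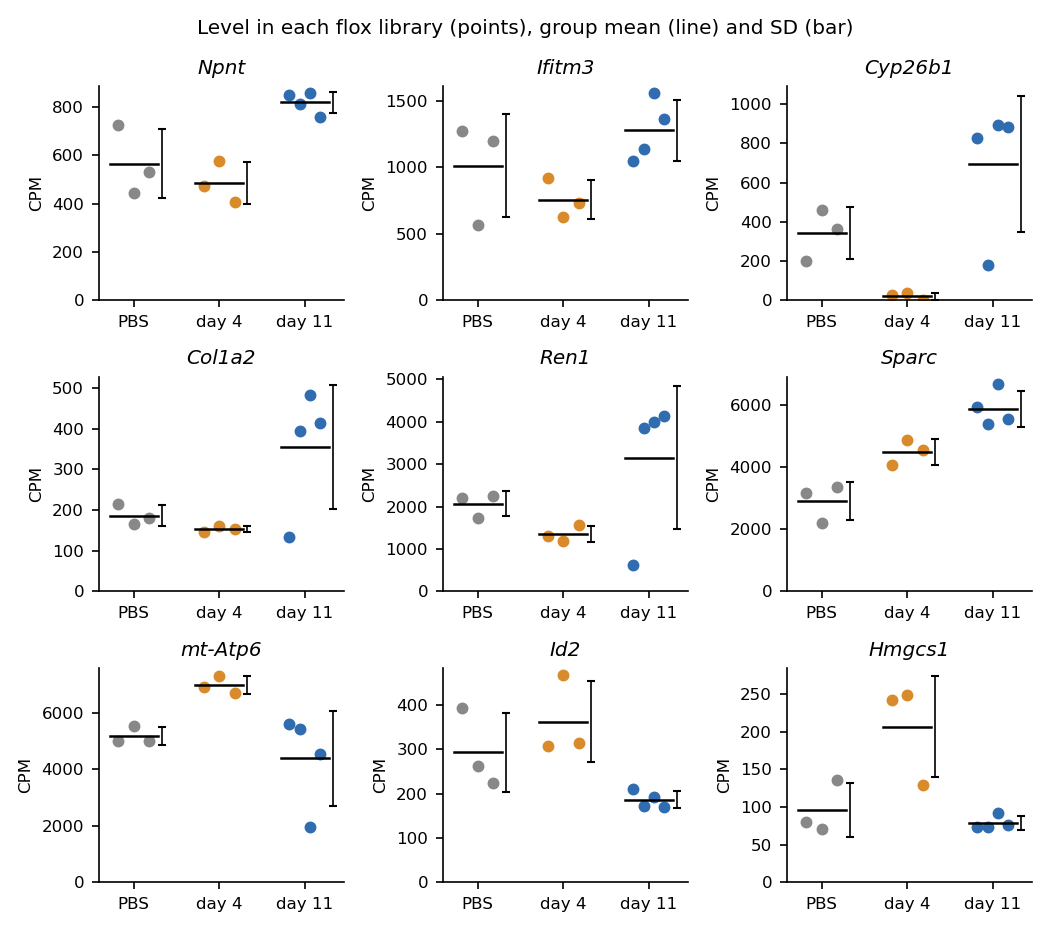
CPM of 9 genes in each flox library (points) of the PBS, day 4 and day 11 groups, with the group mean (horizontal line) and SD (bar) and linear axes from 0. Npnt and Sparc show 4 day 11 points above every other point, Col1a2 and Ren1 show 3 high points and 1 low one at day 11, and mt-Atp6 has 1 day 11 library at 1968 CPM far below the rest.

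The same division of the day 11 libraries appeared in a renin gene. Ren1, expressed by granular cells of the afferent arteriole at the vascular pole, was at 1307, 1191 and 1562 CPM on day 4 and at 620, 3855, 3989 and 4135 CPM on day 11. Replicate 1 lay below every other flox library, PBS included (1734 to 2256 CPM), and replicates 2 to 4 lay above every one. Ren1 had a log2 difference of 1.22 ± 0.55 and 1.56 without replicate 1. Mgp and Cspg4, picked out after their values were seen as further vascular wall and mural cell genes, were also lowest in replicate 1, at 171 against 856 to 1127 CPM and at 21.1 against 122 to 211 CPM in the other day 11 libraries. Agtr1a and Sfrp2, taken with Ren1 from the mesangial and vascular smooth muscle list by smallest p, were instead highest in replicate 1. They were at 203 against 95.5 to 145 CPM and at 421 against 181 to 328 CPM in the other day 11 libraries. The mean log2 CPM of the list was 6.88 in replicate 1 and 7.85 to 8.13 in the others. Of 17 mesangial and vascular smooth muscle genes, 12 were higher and 5 lower, with a median of 0.26 (0.05 with the proximal tubule covariate and 0.46 without day 4 replicate 3). Acta2, the smooth muscle actin of activated mesangial cells, had a log2 difference of -0.04 and an interval of -0.82 to 0.75.

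Cyp26b1 reached the abundance threshold through its day 11 libraries alone, and its fold rests on day 4 values near 0. Its product degrades retinoic acid, a differentiation signal for podocytes. The gene was at 26.2, 37.3 and 0 CPM on day 4 and at 825, 180, 893 and 884 CPM on day 11. The groups did not overlap, although replicate 2 was far below the other 3, and the PBS libraries lay between them at 200, 462 and 363 CPM. Its log2 difference was 5.04 ± 1.94 (unadjusted p = 0.020), and DESeq2 gave 5.10 with an adjusted p of 0.012.

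Endothelial genes of the capillary tuft were mildly to the higher side, 14 of 21 with a median of 0.25, which was 0.09 with the proximal tubule covariate, 0.11 without day 11 replicate 4 and 0.10 without replicates 1 and 3. The days did not overlap for 0 of the 21, against 7.11% of all abundant genes. Ehd3, a marker of glomerular endothelium, was at 1515, 1683 and 1344 CPM on day 4 and at 2130, 1769, 2224 and 1656 CPM on day 11, against 2421 to 3604 CPM in PBS mice. Its log2 difference of 0.36 ± 0.25 left it below the PBS level in every day 11 library. Of 18 parietal epithelial and crescent genes 5 were abundant, Akap12, Cp and Vim among them. All 5 were higher, with a median of 0.54 (0.22 with the covariate), and the days did not overlap for 0 of them. The parietal markers Cldn1, Pax8 and Pax2 showed no such rise. Their sum was 73.4, 58.6 and 31.2 CPM on day 4 and 1.43, 78.2, 61.5 and 52.0 CPM on day 11. Vim, which encodes vimentin, was at 485, 605 and 523 CPM and then at 467, 681, 1049 and 1009 CPM, so that replicates 2 to 4 lay above day 4 and replicate 1 below it. In these bulk libraries a change in the number of cells of a type and a change in RNA per cell cannot be told apart.

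**Figure D3:**
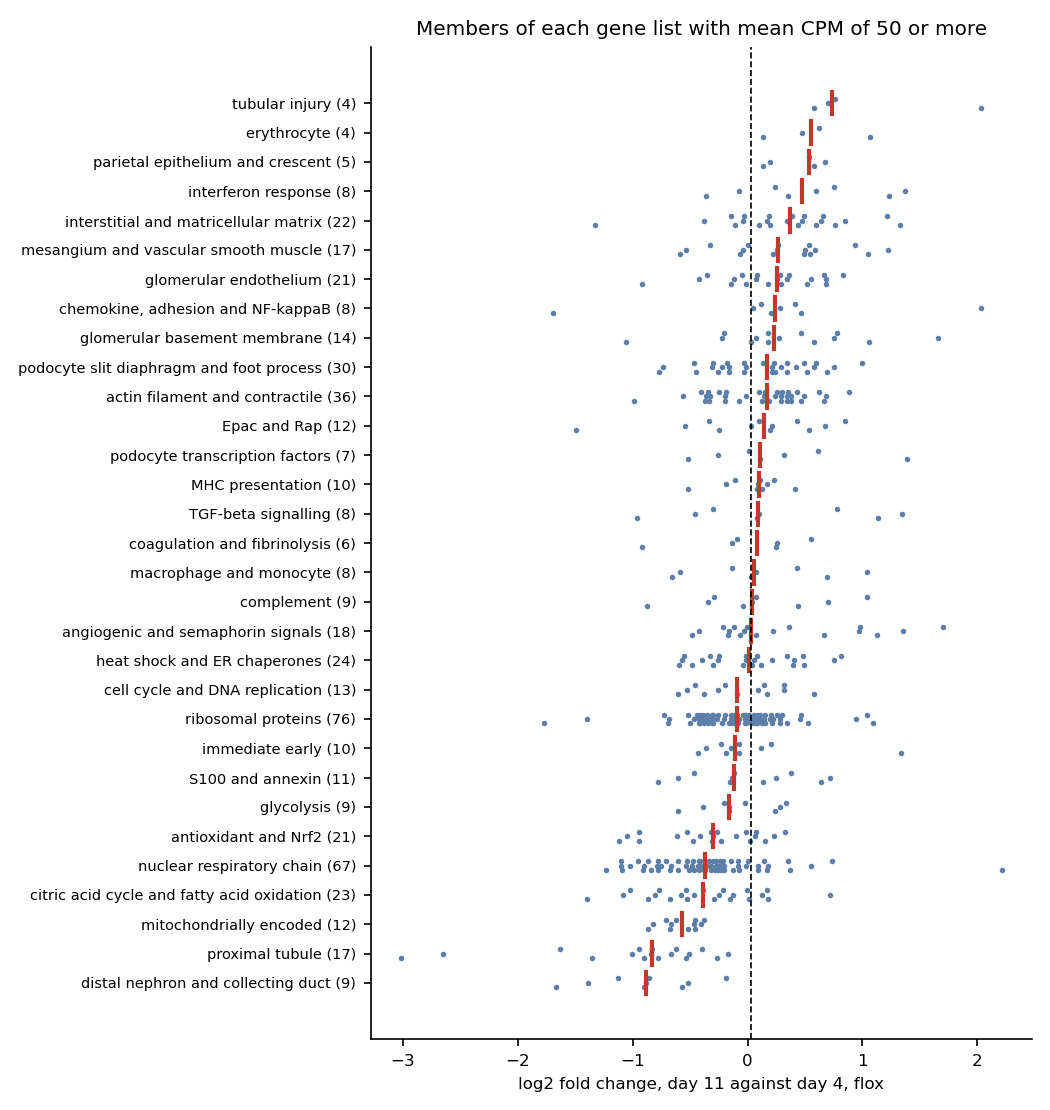
Log2 fold change of day 11 over day 4 for each abundant member (points) of 31 gene lists, number of members in brackets, with the list median as a red bar and the median of all abundant genes as a dashed line. Every point of the distal nephron, proximal tubule and mitochondrially encoded lists lies below 0, while most lists straddle the dashed line.

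Interferon signalling runs from receptors to a transcription factor complex that includes Irf9 and binds a response element in the promoters of target genes such as the antiviral membrane proteins of the Ifitm family. Of 30 genes listed, 8 were abundant, 6 of them higher and 2 lower at day 11, with a median of 0.47. The values of 4 did not overlap, all higher at day 11, against 3.64% of all abundant genes. Ifitm3 was at 919, 624 and 732 CPM on day 4 and at 1048, 1138, 1563 and 1366 CPM on day 11. Day 4 was also low next to 2 of the 3 PBS libraries, which were at 1275, 567 and 1197 CPM, so that the day 11 level lay near the PBS range. The log2 difference was 0.75 ± 0.25 (unadjusted p = 0.0054), and 0.64 to 0.93 with each library left out in turn.

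Irf9, the DNA-binding subunit of that complex, was at 45.6, 41.2 and 19.2 CPM on day 4 and at 133, 77.0, 56.9 and 65.7 CPM on day 11. The groups did not overlap, replicate 1 was the highest library, and the log2 difference was 1.23 ± 0.80. Ifitm2, named because its groups did not overlap, was at 157 to 179.4 CPM and then at 204.3 to 274 CPM. Ifitm2 and Ifitm3 are close copies of each other, and how the counting split shared reads is not given in the sources used here. The list mean in log2 CPM was 6.52 to 6.83 on day 4, 6.88 to 7.04 in PBS mice and 6.89 to 7.49 on day 11. The day 11 libraries thus lay in or above the PBS range, and the day 4 libraries below it.

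The start sites of the 2 Ifitm genes are shown because both genes were higher at day 11 without overlap and carry a common motif. The sequences are from RefSeq on GRCm38.p6, on the minus strand of chromosome 7, with the core of the interferon-stimulated response element, 2 runs of GAAA with any 2 bases between them, in capitals. The first is chr7:140955972-140956031, from 70 to 11 bases before the Ifitm2 start, and the second is chr7:141010716-141010742, bases 3 to 29 of the Ifitm3 transcript.
Ifitm2: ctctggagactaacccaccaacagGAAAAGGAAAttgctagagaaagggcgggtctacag
Ifitm3: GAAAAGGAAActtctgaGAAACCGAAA
The motif was searched on both strands in the 300 bases from 250 before to 50 after each start and was present in 1131 of 32851 such windows (3.44%). Of the 8 abundant interferon genes 6 had a window, and it was found in 4 of them, Ifitm2, Ifitm3, Rsad2 and Bst2. Rsad2 and Bst2, named for the motif alone, had log2 differences of 0.24 ± 0.53 and 0.36 ± 0.65 with overlapping groups, so the motif was not limited to genes whose values stood apart.

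Immune cell transcripts were few and showed no common direction. Of 30 macrophage and monocyte genes 8 were abundant, 5 higher and 3 lower, with a median of 0.05 that ran from -0.12 without day 11 replicate 3 to 0.22 without replicate 4. C1qa, a complement component made by macrophages, was at 20.4, 56.1 and 19.1 CPM and then at 50.4, 39.3, 173 and 0.04 CPM. Such values from 1 library to the next leave no difference to read. Of 27 neutrophil, T cell and B cell genes none reached 50 CPM, and their sum was 55.5 to 219 CPM on day 4 and 45.8 to 113 CPM on day 11. Antigen presentation genes had a median of 0.10 over 10 members (-0.07 to 0.28 with single libraries left out), and chemokine, adhesion and NF-κB genes one of 0.24 over 8 (0.14 to 0.41).

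Genes of the cell cycle held most of their day 4 level in 3 of the 4 day 11 libraries. The mean log2 CPM over 13 abundant genes was 3.59 to 4.69 in PBS mice, 6.68 to 7.47 on day 4, and 4.81, 6.85, 7.85 and 7.10 on day 11. Replicate 1 was the low library, close to PBS, and the other 3 lay around the day 4 range. Of the 13 genes 6 were higher and 7 lower, with a median of -0.09 whose sign depended on single libraries. It was 0.10 without day 11 replicate 1, -0.50 without day 11 replicate 3 and 0.12 without day 4 replicate 3. Mki67, the proliferation marker, was picked out after its values were seen and was at 56.3, 74.5 and 37.6 CPM on day 4 and at 0, 45.3, 178 and 55.7 CPM on day 11. Tuba1b, a tubulin gene of dividing cells, was above PBS on both days, at 654 to 1251 CPM and 564 to 822 CPM against 298 to 357 CPM.

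Transcripts of the proximal tubule and distal nephron lists were lower at day 11 in every abundant gene. Of 10 tubular injury genes 4 were abundant, Clu, Il34 and Spp1 among them. All 4 were higher, with a median of 0.73 (0.53 to 1.09 with single libraries left out), and the days did not overlap for 0 of them. Clu also stood in the complement list and Il34 in the chemokine list. Il34 had a mean of 30.8 CPM on day 4 and 126 CPM on day 11. Whether these transcripts came from tubule cells was not tested. Of 17 proximal tubule genes 17 were lower, with a median of -0.83, and of 9 distal nephron and collecting duct genes 9 were lower, with a median of -0.88, where 48.0% of all abundant genes were lower. The proximal median was -0.44 without day 11 replicate 3 and -0.51 without day 4 replicate 2. Kap, an androgen-regulated proximal tubule gene, was at 660, 939 and 90.9 CPM on day 4 and at 110, 19.3, 93.5 and 55.3 CPM on day 11. The groups overlapped through day 4 replicate 3, and the log2 difference was -3.02 ± 1.21. Umod, which encodes uromodulin of the thick ascending limb, was at 1065, 681 and 593 CPM and then at 410, 486, 437 and 360 CPM. Its groups did not overlap, and the log2 difference was -0.88 ± 0.44. Summed over all genes listed, proximal tubule transcripts were 3143 to 8604 CPM on day 4 and 1001 to 4787 CPM on day 11, and distal ones 2969 to 3748 CPM and 1249 to 2601 CPM, so that only the distal sums were free of overlap. Glomeruli were cut out by laser, and how much of these sums came from tubule fragments taken with them was not tested.

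Mitochondrial transcripts were lower as well. Of 12 abundant mitochondrially encoded genes 12 were lower at day 11, with a median of -0.57, and 4 did not overlap between days, against 3.47% of all abundant genes. mt-Atp6 was at 6913, 7319 and 6694 CPM on day 4 and at 5601, 5433, 1968 and 4545 CPM on day 11. The groups did not overlap, the PBS libraries lay at 4991 to 5545 CPM, and replicate 3 was far below all others. The log2 difference was -0.67 ± 0.21 (unadjusted p = 0.0039) and -0.40 without replicate 3. mt-Atp8, the neighbouring ATP synthase gene whose reading frame overlaps that of mt-Atp6, had a log2 difference of -0.87 ± 0.34.

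Nuclear genes of the respiratory chain leaned the same way. Of 67, 56 were lower and 11 higher, with a median of -0.37, and the days did not overlap for 12 lower genes and 1 higher gene, against 3.47% and 3.64% of all abundant genes. Uqcrc2 of complex III was at 332, 206 and 315 CPM and then at 174, 189, 86.6 and 157 CPM, with a log2 difference of -0.91 ± 0.37. Ndufs8, an iron-sulphur subunit of complex I, was that 1 higher gene, at 35.7, 10.8 and 33.6 CPM and then at 202, 142, 64.5 and 87.9 CPM. Its log2 difference of 2.21 ± 0.78 was called by DESeq2 with an adjusted p of 0.029. Citric acid cycle and fatty acid oxidation genes had a median of -0.39 over 23 members, and antioxidant genes one of -0.30 over 21. Ogdh of the citric acid cycle was at 315 to 341 CPM on day 4 and at 104 to 230 CPM on day 11, without overlap, with a log2 difference of -0.81 ± 0.41.

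These medians changed when the proximal tubule level of each library was entered in the model as a covariate. That level itself leaned lower at day 11. Over the 17 abundant genes its mean log2 CPM was 6.71 to 8.44 on day 4 and 5.44 to 7.46 on day 11. Entering it thus takes out part of any difference between days, and tubule level and day cannot be told apart. The mitochondrially encoded median went from -0.57 to -0.21, the nuclear respiratory chain median from -0.37 to -0.11, the citric acid cycle and fatty acid oxidation median from -0.39 to -0.02, and the antioxidant median from -0.30 to -0.05. The distal nephron median was -0.67 with the covariate, and mt-Atp6 had a log2 difference of -0.33. Without day 11 replicate 3, which had the lowest level in each of these lists, the mitochondrially encoded median was -0.28, the nuclear respiratory chain median -0.20, the citric acid cycle and fatty acid oxidation median -0.24 and the antioxidant median -0.11. The antioxidant median was -0.08 without day 4 replicate 3 and -0.49 without day 11 replicate 4. The interferon median was 0.50 with the covariate and the basement membrane median 0.20, close to their values without it, whereas the matrix median went from 0.37 to 0.15.

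**Figure D4:**
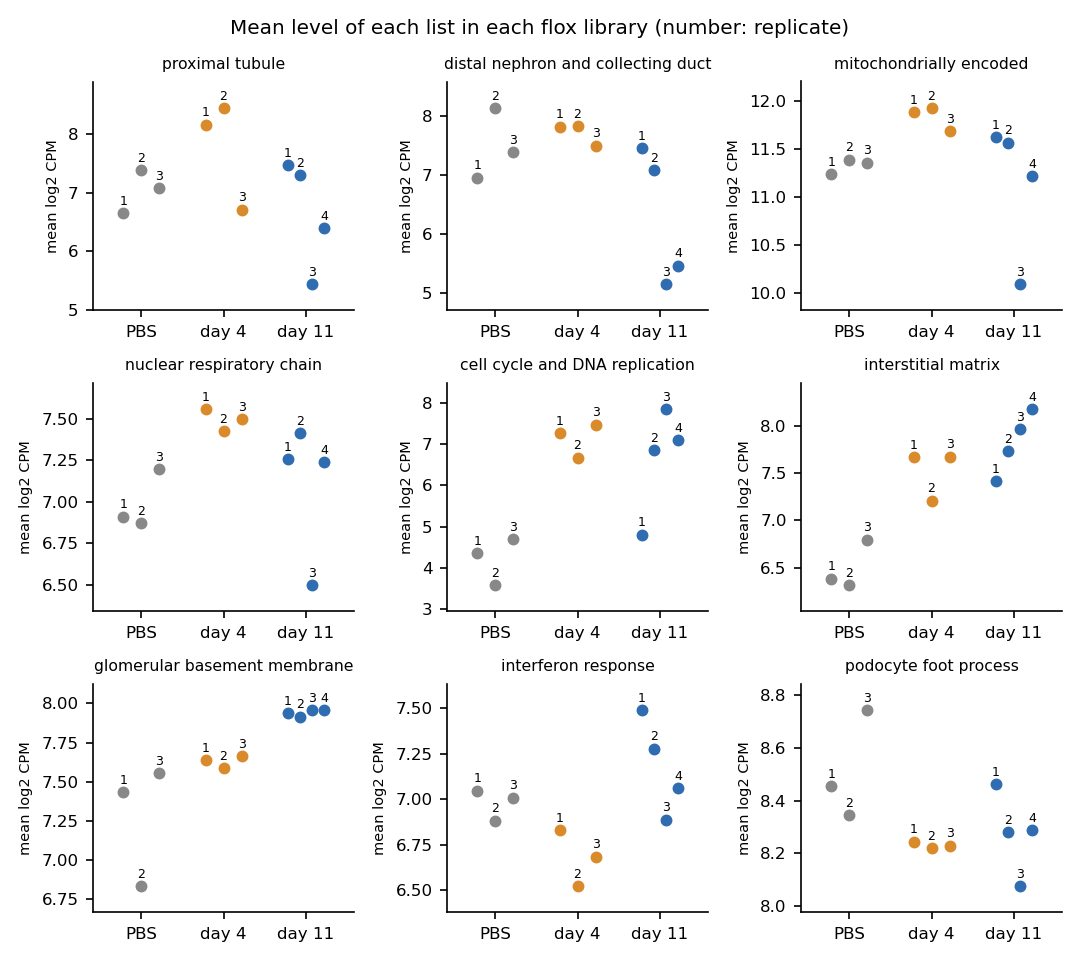
Mean log2 CPM of 9 gene lists in each flox library, by group, with replicate numbers above the points and a separate vertical axis per list that does not start at 0. Basement membrane values at day 11 lie between 7.91 and 7.96, above day 4, day 11 replicate 3 is lowest in both mitochondrial panels, and day 11 replicate 1 lies near PBS in the cell cycle panel.

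Glycolysis genes gave no common direction. Of 22 listed 9 were abundant, 3 of them higher and 6 lower, with a median of -0.16 that was 0.01 without day 11 replicate 1 and 0.12 without replicates 1 and 3. The days did not overlap for 0 of the 9, against 7.11% of all abundant genes. Gapdh was at 182.2, 131 and 133 CPM on day 4 and at 112, 161.3, 67.3 and 115 CPM on day 11, with a log2 difference of -0.38 ± 0.61. Ldhb, a lactate dehydrogenase subunit, had one of -0.60 ± 0.46, and Gpi1, the second enzyme of the pathway, one of 0.28 ± 0.46. Pkm, the pyruvate kinase gene picked out for its role, was at 282 to 331 CPM and then at 134 to 443 CPM, and its log2 difference was -0.02 ± 0.40.

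The other genes named by the rule for non-overlapping days belonged to several pathways. Arap3, a GTPase-activating protein that Rap GTPases stimulate, was at 45.3, 38.1 and 22.2 CPM on day 4 and at 95.9, 100.03, 115 and 101.2 CPM on day 11. The day 11 libraries were close together, above day 4 and below the PBS range of 134 to 208 CPM, and the log2 difference was 1.55 ± 0.55. Iqgap1, a scaffold that ties Rac1 and Cdc42 to actin, was at 388, 514 and 534 CPM and then at 745, 578, 1168 and 659 CPM. Slc48a1, a haem transporter, Qsox1, an oxidase that forms disulfide bonds in secreted proteins, Eef2, the ribosomal translocation factor, Serinc3, Marveld1 and the small GTPase gene Arl4c completed the 12 named on the higher side, with log2 differences of 0.53 to 2.29.

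On the lower side, Id2, an inhibitor of basic helix-loop-helix factors and a BMP target, was at 307, 469 and 314 CPM on day 4 and at 212, 172, 193 and 171 CPM on day 11. The day 11 libraries were again close together, and the log2 difference was -0.96 ± 0.35. Hmgcs1 was at 242, 248.6 and 129 CPM and then at 74.0, 73.5, 92.0 and 75.5 CPM, against 70.6 to 137 CPM in PBS mice. Day 11 was thus within the PBS range, and day 4 stood above it in 2 of 3 libraries, with a log2 difference of -1.39 ± 0.54. Usp16, a histone H2A deubiquitinase, was at 136, 98.6 and 67.8 CPM and then at 3.90, 32.7, 6.91 and 35.4 CPM. Its log2 difference of -2.35 ± 0.82 was one that DESeq2 called with an adjusted p of 0.041. Stard10, a lipid transfer gene, was at 182.04, 137 and 182.4 CPM and then at 35.7, 54.6, 56.8 and 63.4 CPM. The groups stood well apart, with PBS at 24.5 to 89.2 CPM, and the log2 difference was -1.67 ± 0.57. Pura, Aldh4a1 of proline breakdown, the autophagy gene Gabarapl1, the mitochondrial glutathione importer Slc25a39, the lysosomal thioesterase gene Ppt1 and Phf20 completed this side with mt-Atp6 and mt-Atp8, with log2 differences of -2.18 to -0.71.

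The difference between days was then set against that in cKO littermates, 4 libraries on each day. Some cKO libraries were poorer than the flox ones. Day 11 replicate 3 had 4550550 reads, and day 11 replicate 4 had 39.5% reads of the ribosomal RNA gene. In day 4 replicate 3, 7871 genes were detected, against 9933 to 13004 in the 7 flox libraries. No cKO library was left out in turn, so how far cKO values rest on single libraries was not tested. The test of the difference between the genotypes called 0 of 13898 genes with edgeR (0.0%), with a smallest adjusted p of 0.617, while 910 of all genes (6.55%) and 99 of the abundant ones (2.84%) had an unadjusted p under 0.05. DESeq2 called 794 genes here, and voom with quality weights 8. Within cKO mice 0 genes were called between days, with a smallest adjusted p of 0.0504, and 297 abundant genes had an unadjusted p under 0.05 (8.51%), against 87 (2.49%) in flox mice. Whether these 2 counts differ was not tested, and the flox comparison had 1 library fewer.

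Of the 12 genes named on the higher side, 8 had the same sign in cKO mice, and the median log2 difference was 0.80 in flox and 0.04 in cKO mice. Of the 12 on the lower side 9 had the same sign, with medians of -1.18 and -0.53. The flox values chose these genes, so a smaller cKO value is partly built in. The day 11 over day 4 difference of Ifitm3 was 0.03 ± 0.23 in cKO mice, and that of Npnt was 0.47 ± 0.23. For mt-Atp6 it was -0.76 ± 0.20, against -0.67 ± 0.21 in flox mice. By list, the mitochondrially encoded median was -0.86 in cKO mice and the nuclear respiratory chain median -0.69, both further below 0 than in flox mice, and the interferon median was -0.01.

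Spp1, Col4a1 and Thsd7a had differences between days that were further from 0 in cKO than in flox mice by value. Spp1, which encodes osteopontin, was at 180, 83.5 and 239 CPM and then at 223, 282, 227 and 406 CPM in flox mice, a log2 difference of 0.76 ± 0.44. In cKO mice it was at 44.4 to 96.8 CPM and then at 214 to 531 CPM, a log2 difference of 2.23 ± 0.42. The flox minus cKO difference was -1.46 ± 0.58 for Spp1, -0.94 ± 0.35 for Col4a1 and 0.86 ± 0.39 for Thsd7a, and none passed the test after adjustment. The genes with the smallest p for this difference included Arap3, at 2.42 ± 0.73, Ndufs8, at 3.07 ± 1.02, and the nuclear RNA Malat1, at -0.58 ± 0.19. Malat1 was at 8909 to 9790 CPM on day 4 and at 7478 to 9076 CPM on day 11 in flox mice, with a log2 difference of -0.21 ± 0.14.

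**Figure D5:**
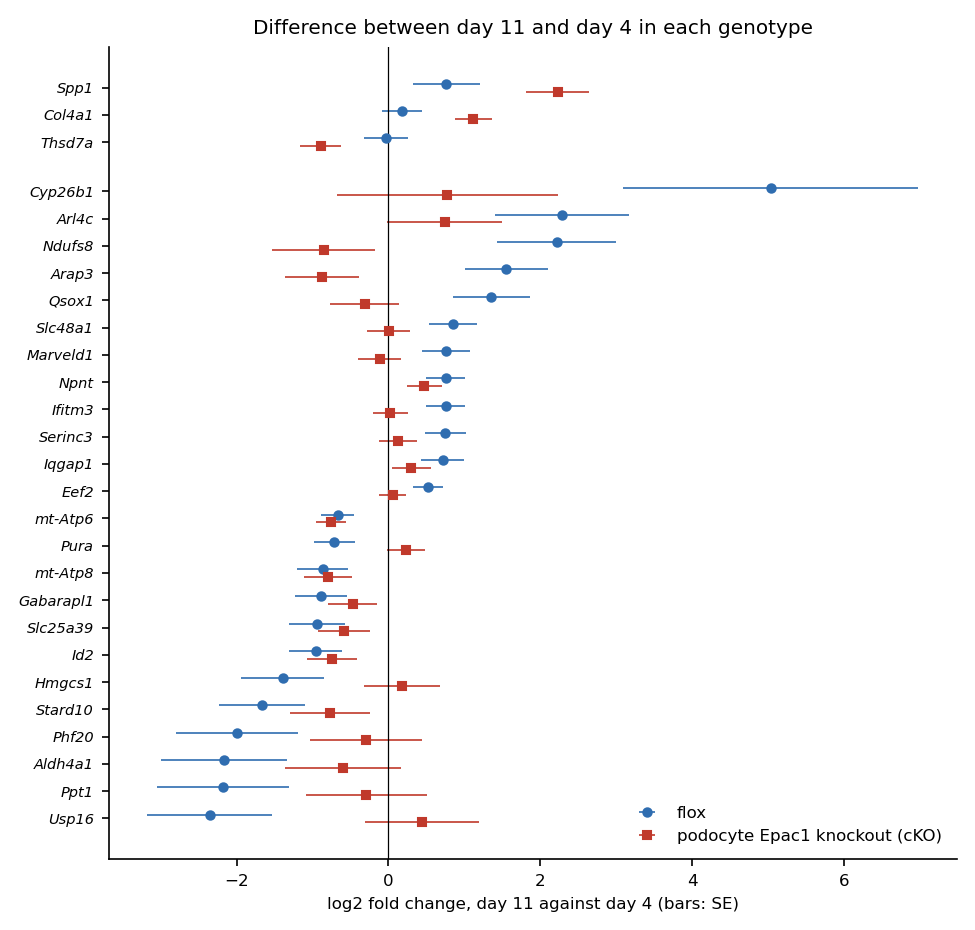
Log2 fold change of day 11 over day 4 in flox (blue circles) and cKO (red squares) mice for the 24 genes named by the flox values and for Spp1, Col4a1 and Thsd7a, with bars for the standard error. mt-Atp6 and mt-Atp8 nearly coincide in the 2 genotypes, Arap3 and Ndufs8 lie on opposite sides of 0, and Spp1 is further to the right in cKO mice.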

How the data were processed

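Per the file headers, the authors deposited 1 table per library with an estimated count of reads for each gene and no normalization. The submitters' processing notes name FastQC, fastp, DRAGEN, Picard and mm10. Strand setting, duplicate handling, the annotation release and the treatment of reads shared by near-identical or overlapping genes: not given in the sources used here. Each table held 35598 genes, of which 35513 identifiers were found in GENCODE M21.

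Counts were rounded to whole numbers. edgeR 4.0.16 (R 4.3.3) kept genes by filterByExpr (at least 10 counts), scaled libraries by TMM and fitted a robust quasi-likelihood model of 6 group means to all 21 libraries, because the compared groups held only 3 and 4. It had 15 residual degrees of freedom, and p-values were adjusted by Benjamini-Hochberg over 13898 genes. A standard error is the size of the log2 fold change over the root of its F statistic. CPM are TMM-scaled, and list levels are means of log2 CPM with a prior count of 2. P-values are unadjusted and from edgeR unless stated. They weigh a difference against the spread between mice with 1 library each, estimated over all 21 libraries and so not from the flox serum mice alone. The fit was also run on counts simulated with the spread estimated from these data, and the outcome is not reported here.

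Genes were named by rule. Among genes with a mean of 50 CPM or more over the 7 libraries, the rule took the 12 higher and 12 lower genes of smallest p whose days did not overlap, predicted genes passed over. It added up to 3 members of smallest p per list, a set of podocyte, matrix and Epac genes, and the 6 genes of smallest p for the genotype difference, 119 in all, of which a selection is described and some are not reported here. Members and lists were chosen with earlier results of these data known. The alternatives were DESeq2 1.42.0, voom with quality weights (limma 3.58.1), median-of-ratios size factors, no filter, only abundant genes, only the 7 libraries, a proximal tubule covariate, a block for replicate number, removal of ribosomal RNA, mitochondrial and haemoglobin genes, and single libraries left out. Omitting day 11 replicates 1 and 3 together was chosen after seeing the data. Plots were made with matplotlib 3.10.9 under Python 3.11.15.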

Additional observations from a re-analysis of the deposited data

Results flagged for a closer look

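Single day 11 libraries stood apart from the other 3 of their group by Dixon's test in the following values, 8 of 91 sets of 4 values examined, where chance gives such a result in about 1 in 20 groups. Replicate 1 had Ren1 at 620 CPM against 3855 to 4135 CPM, haemoglobin at 1.53% of reads against 0.16% to 0.20%, and an erythrocyte list level of 11.5 log2 CPM against 8.12 to 8.45. Replicate 2 had Cyp26b1 at 180 CPM against 825 to 893 CPM and Timp2 at 1168 CPM against 2223 to 2301 CPM. Replicate 3 had Hmgcs1 at 92.0 CPM against 73.5 to 75.5 CPM and a heat shock and ER chaperone list level of 7.90 log2 CPM against 7.17 to 7.26. Replicate 4 had Col4a1 at 1167 CPM against 740 to 777 CPM. For Cyp26b1 and Hmgcs1 the library that stood apart was still on the same side of day 4 as the others, whereas for Ren1 it was below the day 4 range and for Timp2 within it.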

How the results depend on the processing

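No gene was called between days by edgeR under any alternative run, and other tools alone made calls, DESeq2 567 and voom with quality weights 25. For the genotype difference they made 794 and 8. The count of 87 abundant genes at an unadjusted p under 0.05 became 174 with voom, 176 in a fit of only the 7 libraries, 56 with the proximal tubule covariate and 46 without day 11 replicates 1 and 3, and was 69 to 113 with each library left out. The cause of these shifts was not tested. Evenly spread p-values would give 174 abundant genes. Same-numbered libraries of the 2 days deviated together with correlations of 0.04, 0.0045 and -0.01, and differently numbered ones with -0.08 to 0.10. Whether equal numbers mark a shared batch was not tested, and the main fit did not pair the libraries. With a replicate block the count was 84 and Rapgef3 had a log2 difference of -0.13. The signs of 8 genes changed under some alternative. Rapgef3 was at -0.27 with the tubule covariate, Nphs1 at -0.14, Acta2 at 0.13 and C1qa at -0.68 without day 11 replicates 1 and 3, and voom gave -1.74 for C1qa, 0.061 for Podxl and 0.018 for Acta2. DESeq2 and median-of-ratios factors both gave 0.011 for Thsd7a. Over single libraries left out, values ran from -0.060 to 1.72 for C1qa, -0.058 to 0.86 for Gpi1, -0.28 to 0.28 for Rapgef3, -0.35 to 0.10 for Synpo, -0.23 to 0.21 for Thsd7a and -0.22 to 0.13 for Acta2. At this depth 1176 less abundant genes had no reads in a whole group, and no difference is read for them.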
